A study of Mus musculus with 3 samples.

Results

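The genes described here are 10 genes that cells turn on when amino acids run short, followed through palatal fusion in cultured mouse palate. They are the amino acid transporter genes *Slc7a3*, *Slc7a5* and *Slc7a11*, the synthesis genes *Asns*, *Psat1* and *Phgdh*, and the stress genes *Trib3*, *Chac1*, *Ddit3* and *Atf5*. The list was chosen by the deposited signals themselves, because *Slc7a3*, *Slc7a5*, *Asns* and *Trib3* were lower on the array at 24 h of culture than on the array at 5 h. The comparison of during with before fusion is therefore a description of what chose the list. Of 45037 probe sets other than controls, 18 belong to these 10 genes, out of 18194 genes with a probe set, and all 18 are reported.

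Maxillae of ICR mouse fetuses at E14, labelled female, with no engineered allele or added agent named in the labels, were grown in suspension in BGJb medium with penicillin/streptomycin. Tissue was microdissected before fusion (5 h, edge of the shelves), during fusion (24 h, median tissue) and after fusion (60 h, median tissue), and RNA of each stage was hybridized to 1 Affymetrix whole-genome mouse array. No stage was replicated, so no test between stages can be made, and the stage, the hours in culture and the piece of tissue change together and cannot be told apart. The tissue is a mixture of epithelium, mesenchyme and other cells, so fewer cells of a type and less RNA per cell cannot be told apart either. All values are MAS5 signals scaled to one trimmed mean, a ratio is taken between 2 such signals, signals are given in the order before, during and after fusion, and the only spread available lies between different probe sets of a gene. Between probe sets above background on both arrays, the log2 ratio of a gene had an SD of 0.37 from before to during fusion, of 0.46 from before to after and of 0.44 from during to after. Background on each array was set by probe sets of olfactory, vomeronasal and taste receptor genes, and this floor lay at scaled signals of 19.4, 13.3 and 14.7.

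When amino acids are scarce, uncharged tRNAs activate the kinase GCN2, which phosphorylates the translation factor eIF2α. General translation falls, while the mRNA of the transcription factor ATF4 is translated more, so that ATF4 activity can change with little change in its mRNA. ATF4 raises genes for amino acid uptake, amino acid synthesis, tRNA charging and a feedback arm that includes TRIB3 and CHOP, the product of *Ddit3*. Stress of the endoplasmic reticulum reaches the same step through the kinase PERK, and for this reason the pathway is also called the integrated stress response. ATF4 and its C/EBP partners bind a short element, the C/EBP-ATF response element (CARE).

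The core of this element, TTNCATCA, was searched on both strands in the RefSeq promoters of assembly GRCm38.p6, from 250 bases before to 50 bases after each annotated start. A match was found in 4.51% of all 27025 genes with a promoter in the table, and in 3.97% of the 32851 promoters. Of the members, 8 had a promoter there and 4 of these held a match, namely *Asns*, *Slc7a11*, *Chac1* and *Trib3*. Shown here are the matches upstream of the start in 3 members, in 2 tRNA synthetase genes that were low during fusion and in 2 stress genes that were high after it. Letters read 5′ to 3′ on the strand of the gene, and the capitals mark the core or its reverse complement.
*Asns*: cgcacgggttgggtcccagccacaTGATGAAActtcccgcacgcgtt
*Slc7a11*: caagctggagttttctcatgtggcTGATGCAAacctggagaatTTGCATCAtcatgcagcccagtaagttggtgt
*Chac1*: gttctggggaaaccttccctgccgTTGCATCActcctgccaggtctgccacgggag
*Aars*: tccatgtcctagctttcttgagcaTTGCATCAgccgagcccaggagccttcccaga
*Gars*: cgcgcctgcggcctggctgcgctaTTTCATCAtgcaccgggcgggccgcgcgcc
*Nupr1*: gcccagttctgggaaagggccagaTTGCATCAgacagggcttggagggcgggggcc
*Atf3*: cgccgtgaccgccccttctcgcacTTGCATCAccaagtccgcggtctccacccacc

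The *Asns* stretch is chr6:7693210-7693256 on the minus strand, and its match starts 23 bases upstream of the annotated start. The *Slc7a11* stretch is chr3:50443629-50443703 on the minus strand and holds 2 matches in opposite orientations, starting 66 and 47 bases upstream. The *Chac1* stretch is chr2:119351025-119351080 on the plus strand, with the match 193 bases upstream. The remaining stretches are chr8:111033706-111033761 on the plus strand (*Aars*), chr6:55037947-55038000 on the plus strand (*Gars*), chr7:126625549-126625604 on the minus strand (*Nupr1*) and chr1:191183412-191183467 on the minus strand (*Atf3*). In *Trib3* the match, TTACATCA, starts at base 15 of the annotated transcript (chr2:152344039-152344046, minus strand). *Ddit3*, *Atf5*, *Psat1* and *Phgdh* held no match to these letters in this window. Among other genes of the pathway, the letters were found in 5 of 13 tRNA synthetase genes with a promoter in the table, in 6 of 16 other target genes of ATF4 and CHOP, in 3 of 15 other genes of amino acid and one-carbon synthesis and in 2 of 17 other transporter genes, and in none of 16 endoplasmic reticulum chaperone genes. A match is a run of letters and was not tested as a site.

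During fusion, 8 of the 10 genes were over 2-fold lower than before fusion and none was over 2-fold higher. Over all 13939 genes above the floor on at least 1 of these arrays, 3.19% were over 2-fold lower and 5.45% over 2-fold higher. The count of members reflects how they were chosen, and nothing is read from it. Of the 10, 9 had the lowest of their 3 signals on the array during fusion, against 22.1% of the 11841 genes above the floor on all 3 arrays. This count also reflects how the list was chosen, and nothing is read from it. *Ddit3* was the exception, with its lowest signal before fusion. Their median log2 ratio during over before fusion was -1.58, and that of all genes was -0.05. The member just past the 2-fold limit was *Phgdh*, 2.21-fold lower, and the next, within the limit, was *Slc7a11*, 1.22-fold lower.

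**Figure D1:**
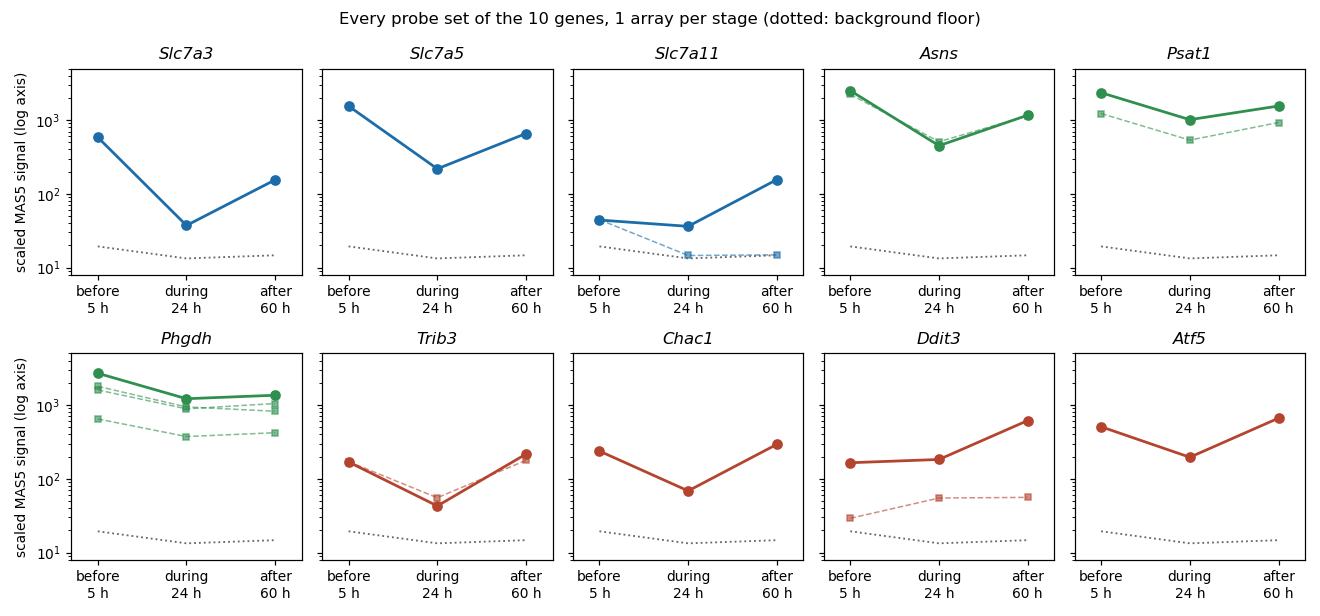
Scaled MAS5 signal (log axis) of every probe set of the 10 genes against the stage and hours in culture, 1 array per stage. Solid lines are the brightest probe set of a gene, dashed lines its other probe sets and dotted lines the background floor; 9 genes are lowest during fusion by their brightest probe set, and *Ddit3* is not.

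*Slc7a3* encodes the cationic amino acid transporter CAT-3, which carries arginine and lysine. Its only probe set gave scaled signals of 585, 37.3 and 155. The signal during fusion was near enough to the floor of 13.3 that folds from it have little precision. It was thus highest before fusion and lowest during it, 15.7-fold lower during than before, and 3.78-fold lower after than before fusion. Among the 12125 genes above the floor on both arrays, this was the lowest ratio during over before fusion, as the choice of the list would have it. After fusion the signal was 4.16 times that during fusion.

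*Slc7a5* encodes LAT1, the light chain of the exchanger for leucine and other large neutral amino acids. Its signals were 1550.2, 218.6 and 658. The order of stages was that of *Slc7a3*, 7.09-fold below the starting signal during and 2.36-fold below it after fusion, with a ratio of 3.01 after over during fusion. Its partner in the membrane, the heavy chain gene *Slc3a2*, had signals of 1790, 764.8 and 2332 and was 2.34-fold lower during than before fusion and 3.05 times as high after as during fusion. *Slc3a2* thus ended above its signal before fusion, with a ratio of 1.30, and *Slc7a5* below it.

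*Slc7a11* encodes xCT, the cystine-glutamate exchanger that feeds glutathione synthesis, and differed from the other transporter genes. The brighter probe set gave signals of 44.1, 36.3 and 156, with ratios of 0.822 during and 3.54 after over before fusion. It was low at both early stages and 4.30 times as high after as during fusion. The other probe set, made from an expressed sequence tag, had signals of 44.7, 14.6 and 14.9 and lay close to the floor at the later stages, so that the probe sets of this gene disagree. With the median over both, the ratio after over before fusion was no longer over 2-fold (log2 0.12).

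*Asns* encodes asparagine synthetase, whose promoter element is shown above. The brightest probe set gave signals of 2511, 450.1 and 1166, and the other 2232, 509.6 and 1142. Both were lowest during fusion, 5.58-fold and 4.38-fold lower than before, and both had about the same signal after fusion, 2.15-fold and 1.95-fold lower than before. Taken after over during fusion, the ratios were 2.59 and 2.24. The ratio after over before fusion passed 2-fold by a small margin and did not with the signals as deposited (log2 -0.93).

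*Phgdh* and *Psat1* encode the first and second enzymes of serine synthesis. By its brightest probe set *Phgdh* gave signals of 2694, 1217 and 1357, that is 2.21-fold and 1.98-fold below the start during and after fusion. The other probe sets of *Phgdh*, 3 in number, were 1.73-fold to 1.90-fold lower during fusion, and all of its probe sets are of a type that can share sequence with other genes. *Psat1* had signals of 2353, 1014 and 1554, and its second probe set 1227, 536 and 927. Both *Psat1* probe sets were lower during fusion, 2.32-fold and 2.29-fold. *Psph*, which carries out the last step of serine synthesis, had signals of 635, 249 and 403 and was 2.55-fold lower during fusion. After over during fusion, the ratios were 1.12 for *Phgdh*, 1.53 for *Psat1* and 1.62 for *Psph*, so none of these 3 was over 2-fold higher. The 2-fold difference of *Phgdh* and *Psat1* during fusion is not kept with the signals as deposited (log2 -0.87 and -0.94).

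*Trib3* encodes a pseudokinase that holds back ATF4 and AKT signaling. One of its probe sets gave signals of 168.8, 42.8 and 216, and the other of 170.5, 55.3 and 178. Both were lowest during fusion, 3.94-fold and 3.09-fold lower than before, and both were near the starting signal after fusion, with ratios of 1.28 and 1.04. After over during fusion the ratios were 5.05 and 3.22, the first being the highest of the members. The related genes *Trib1* and *Trib2* were not over 2-fold different in any comparison, with ratios during over before fusion of 0.605 and 0.920.

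*Chac1* encodes an enzyme that breaks down glutathione and is induced late in the response. It gave signals of 237, 68.5 and 293, which is 3.47-fold lower during than before and 4.28 times as high after as during fusion. *Chac2*, its paralog, ran the other way within 2-fold, with signals of 89.7, 161 and 116. *Atf5* encodes a transcription factor translated in the same manner as ATF4. Its signals were 507, 196 and 664, which is 2.59-fold lower during than before fusion and 3.39 times as high after as during fusion. For *Trib3*, *Chac1* and *Atf5* the signal after fusion was within 2-fold of that before fusion, and for *Trib3* and *Chac1* the sign of this small difference turned with the poly-A scaling.

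*Ddit3*, encoding the stress factor CHOP, stood apart. The brightest of its probe sets gave 165, 183 and 616. It was about level at the first 2 stages, with a ratio of 1.11 whose sign turns between scalings, and was 3.73 times as high after as before fusion and 3.37 times as high after as during fusion. A dimmer probe set had signals of 29.1, 54.8 and 55.9, with ratios of 1.88 and 1.92 over before fusion, so the probe sets share the direction over before fusion but not the timing.

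**Figure D2:**
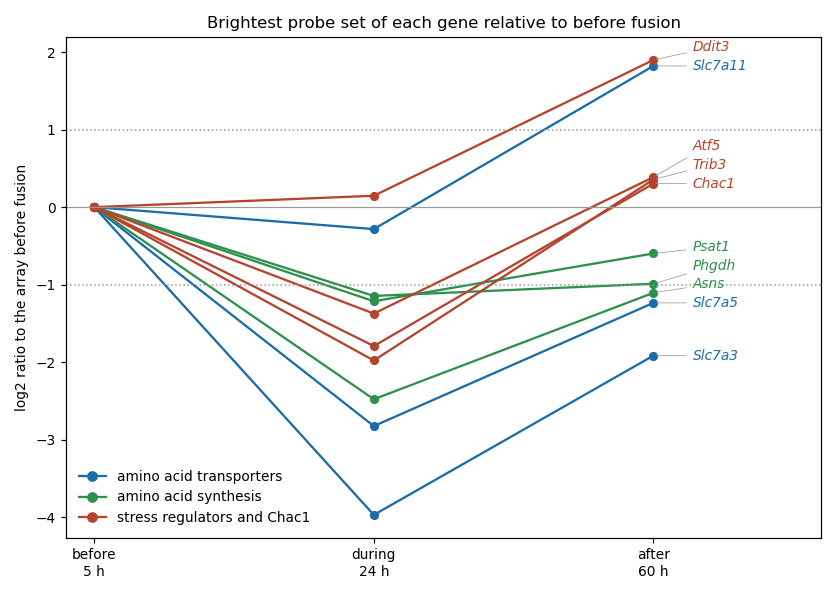
Log2 ratio of the brightest probe set of each gene to the array before fusion, by stage and hours in culture; dotted lines mark 2-fold and each line is 1 gene. *Ddit3* and *Slc7a11* lie over 2-fold above the starting level after fusion, *Atf5*, *Trib3* and *Chac1* near it, and *Psat1*, *Phgdh*, *Asns*, *Slc7a5* and *Slc7a3* below it.

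After fusion, the members fell into 3 sets relative to before fusion. *Slc7a3*, *Slc7a5* and *Asns* were over 2-fold lower, *Slc7a11* and *Ddit3* over 2-fold higher, and the other 5 within 2-fold. These 3 of 10 and 2 of 10 stand beside 9.58% of genes lower and 12.6% higher among 14001 genes above the floor. Over 6 scalings, 2 to 4 members were lower and 2 higher. The median log2 ratio of the members was -0.15, and that of all genes was -0.09. Between the arrays during and after fusion, 8 of the 10 were over 2-fold higher after fusion and none lower, where 8.73% of 14339 genes were higher and 5.08% lower. Their median log2 ratio was 1.76. This comparison uses the same array during fusion on which the list was chosen to be low, so its count is a description as well. The members over 2-fold higher were all except *Psat1* and *Phgdh*, and the count was 8 under each of 6 scalings.

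Of 9 genes for eIF2α kinases and their regulators, none was over 2-fold different during over before fusion, where 3.19% of all genes were lower and 5.45% higher, and their median log2 ratio was 0.11. After over before fusion 2 of the 9 were lower and 1 higher, beside 9.58% and 12.6% of all genes. *Atf4*, the transcription factor gene itself, gave signals of 1297, 1135 and 2153, with ratios of 0.875 during and 1.66 after over before fusion. *Eif2ak4*, encoding GCN2, had signals of 86.4, 103 and 31.4 and was 2.75-fold lower after than before fusion, and *Impact*, an inhibitor of GCN2 activation, was 2.20-fold lower with signals of 332, 361 and 150.5. For both genes a second probe set had a log2 ratio of the other sign (0.12 and 0.36), so these differences rest on 1 probe set each. The second *Impact* probe set was over 2-fold higher during over before fusion (log2 1.13). A dimmer probe set of *Ppp1r15b* was over 2-fold higher after over before fusion (log2 1.15), where the brightest gave -0.36. The counts above use only the brightest probe set. *Ppp1r15a*, the GADD34 subunit that removes phosphate from eIF2α, had signals of 143, 189 and 303 and was 2.12 times as high after as before fusion. The PERK gene *Eif2ak3* stayed between 212 and 232.

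Other amino acid transporter genes followed in part. Of 21, 4 were over 2-fold lower during over before fusion and 2 higher, beside 3.19% and 5.45% of all genes. After over before fusion none was lower and 2 were higher, beside 9.58% and 12.6% of all genes. The 4 lower genes were *Slc7a1*, the main carrier of arginine and lysine (2.79-fold), *Slc1a4*, a carrier of alanine, serine and cysteine (2.56-fold), *Slc3a2* and the glycine transporter gene *Slc6a9* (2.01-fold). Another probe set of *Slc1a4* and another of *Slc6a9* were lower but within 2-fold (log2 -0.90 and -0.38). *Slc7a2*, a close relative of *Slc7a3*, ran the other way, with signals of 53.8, 128 and 118 and ratios of 2.38 during and 2.20 after over before fusion; its second probe set was slightly lower during fusion (log2 -0.23). The system L transporter gene *Slc43a2* was also higher, 2.13 and 3.21 times. Its signal before fusion, 24.6, lay near the floor, and its second probe set was higher but within 2-fold (log2 0.55 and 0.81). The system A gene *Slc38a2*, a known target in amino acid starvation, had signals of 1209, 964 and 851 and was within 2-fold. Between scalings, 2 to 5 of the 21 were lower during over before fusion, and up to 4 after over before fusion.

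Genes for amino acid and one-carbon synthesis were lower in larger number. Of 18 above the floor, 8 were over 2-fold lower during over before fusion and none was higher, beside 3.19% and 5.45% of all genes. After over before fusion 6 were lower and none higher, beside 9.58% and 12.6% of all genes. Over the scalings, 8 to 9 were lower in the first comparison and 4 to 10 in the second. *Bcat1*, which transfers the amino group of branched-chain amino acids, had signals of 438, 79.8 and 70.9 and lay 5.48-fold below the start during and 6.17-fold below it after fusion. *Shmt2*, the mitochondrial enzyme that turns serine into glycine, had signals of 1437, 358 and 354 (4.02-fold and 4.06-fold lower), and the alanine aminotransferase gene *Gpt2* 801, 233 and 232 (3.44-fold and 3.45-fold lower). By the brightest probe set, these 3 were as low after fusion as during it. For *Shmt2* and *Gpt2* this depended on the probe set. Their highest log2 ratios among probe sets were -1.84 and -1.41 during and -1.14 and -1.01 after over before fusion. The folate enzyme genes *Aldh1l2* and *Mthfd2* had intermediate and full returns, with signals of 292, 77.3 and 141 for the first and 629, 216 and 600.4 for the second. *Mthfd2* was the only one of the 18 over 2-fold higher after than during fusion, with a ratio of 2.78. *Pycrl*, of proline synthesis, was 2.59-fold lower after than before fusion and 1.31-fold lower during fusion.

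The cytosolic tRNA synthetases join amino acids to their tRNAs. Of 19 with a probe set, 8 were over 2-fold lower during over before fusion and none higher, with a median log2 ratio of -0.59. Among all genes, 3.19% were lower and 5.45% higher. *Aars*, for alanine, gave signals of 1128, 372 and 701 and was 3.03-fold lower during than before. *Iars* (isoleucine) was 2.56-fold, *Gars* (glycine) 2.54-fold and *Mars1* (methionine) 2.28-fold lower, followed by *Nars*, *Lars*, *Cars* and *Tars* at 2.26-fold to 2.16-fold. At the other end, *Farsa*, *Qars*, *Farsb* and *Rars* had ratios of 0.992, 0.941, 0.906 and 0.878. Another probe set of *Qars* was over 2-fold lower (log2 -1.11) and another of *Farsa* was near that limit (log2 -0.93), so the ratios of these genes depend on the probe set. After over before fusion none of the 19 was over 2-fold different, where 9.58% of all genes were lower and 12.6% higher. *Cars*, with signals of 419.5, 191 and 431, was the only synthetase gene over 2-fold higher after than during fusion (ratio 2.25). The number over 2-fold lower during fusion depended on the scaling, with 3 for the signals as deposited and 9 for the poly-A controls, where 8 were also lower after over before fusion. Relative to the median of all genes, the median log2 ratio of the group lay between -0.54 and -0.51 under each of 6 scalings.

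**Figure D3:**
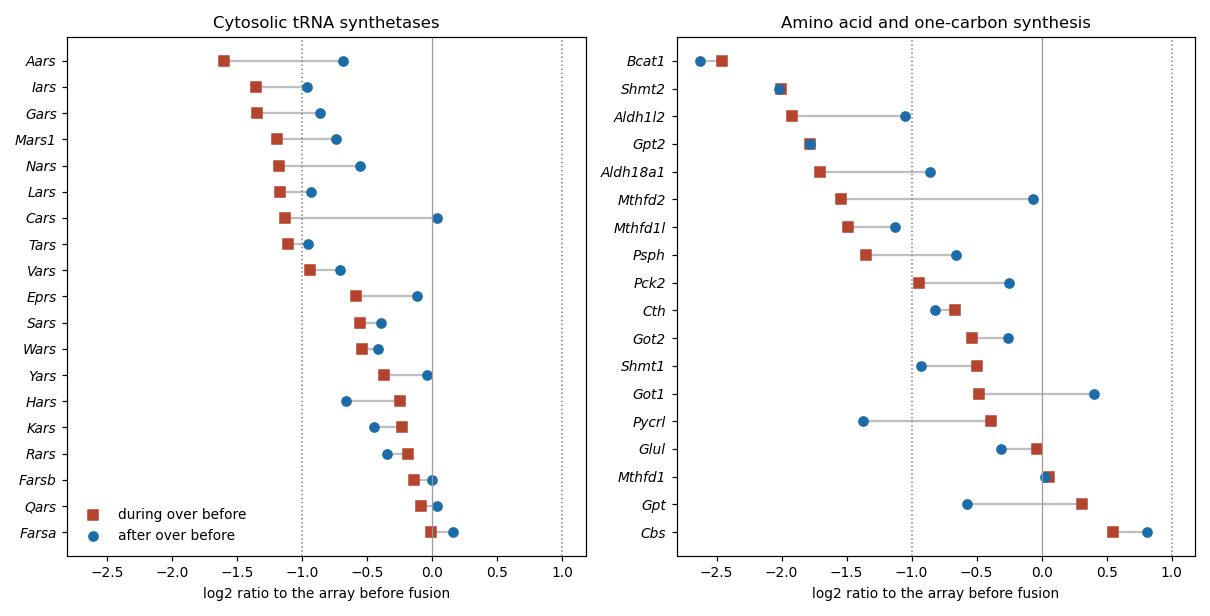
Log2 ratio to the array before fusion of 19 cytosolic tRNA synthetase genes (left) and 18 genes of amino acid and one-carbon synthesis (right), by the brightest probe set, 1 array per stage. Squares are during and circles after fusion and dotted lines mark 2-fold; *Aars* and *Mthfd2* move back toward 0 after fusion, and *Bcat1*, *Shmt2* and *Gpt2* do not.

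Other target genes of ATF4 and CHOP did not share one direction. Of 16, 2 were over 2-fold lower and 2 higher during over before fusion, beside 3.19% and 5.45% of all genes. After over before fusion none was lower and 5 were higher, beside 9.58% and 12.6% of all genes. *Stc2*, a secreted glycoprotein, had signals of 73.6, 15.2 and 41.0 and was 4.83-fold lower during fusion, where it lay near the floor, and its probe sets ranged from -2.27 to -0.98 in log2 ratio. The translation repressor gene *Eif4ebp1* had signals of 1997, 855 and 1926 and was 2.34-fold lower. Its probe sets ranged from -1.27 to -0.03 in log2 ratio, so this also depends on the probe set. *Fgf21*, a secreted hormone, had signals of 24.7, 135 and 78.1, the first near the floor. It ran opposite to *Stc2* and *Eif4ebp1*, 5.46 times as high during as before fusion. *Cebpb*, a partner of ATF4, was 2.89 times as high during and 6.13 times as high after fusion as before it, with signals of 277, 802 and 1698. The stress genes *Nupr1* and *Atf3* were level between the first arrays and high on the last, as was *Ddit3*. *Nupr1* had signals of 117, 118 and 1260.04, a ratio of 10.8 after over before fusion, and *Atf3* had 53.1, 57.5 and 318, a ratio of 5.99.

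Chaperone and degradation genes of the endoplasmic reticulum and targets of the oxidant-sensing factor NRF2 were set beside these, because PERK also acts on eIF2α and because *Slc7a11* and *Chac1* bear on glutathione. Of 18 chaperone and degradation genes, none was over 2-fold different in any of the 3 comparisons, although with other scalings 1 was lower or up to 2 were higher. Among all genes, 3.19% to 9.58% were lower and 5.45% to 12.6% higher in these comparisons. The chaperone gene *Hspa5* (BiP) had signals of 4707, 3076 and 3985, with ratios of 0.653 during and 0.847 after over before fusion. *Xbp1* had ratios of 0.983 and 1.09 by its brightest probe set. Its 4 probe sets ranged from -0.29 to 1.24 in log2 ratio after over before fusion, so another probe set was over 2-fold higher. Of 9 NRF2 targets, 5 were over 2-fold higher during and 7 after over before fusion, beside 5.45% and 12.6% of all genes. None of the 9 was lower, and the median log2 ratios were 1.06 and 2.16. The highest ratios after fusion were those of *Hmox1* (2.36 during and 7.09 after over before fusion) and *Srxn1* (3.09 and 5.84). The glutathione synthesis genes *Gclc* and *Gclm* had ratios of 4.47 and 4.72 after over before fusion, where *Slc7a11* had 3.54. The core of the NRF2 element, TGACNNNGC on either strand, was found in 5 of 7 NRF2 target genes with a promoter in the table and in 14.0% of all genes. Of these 5, *G6pdx* had no probe set. Over the other gene lists the share ran from 6.67% (other synthesis genes) to 35.3% (other transporter genes). Among the members it was found in *Phgdh* and *Asns*. In *Asns* it does not overlap the CARE match, and no match to it was in the *Slc7a11* window.

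**Figure D4:**
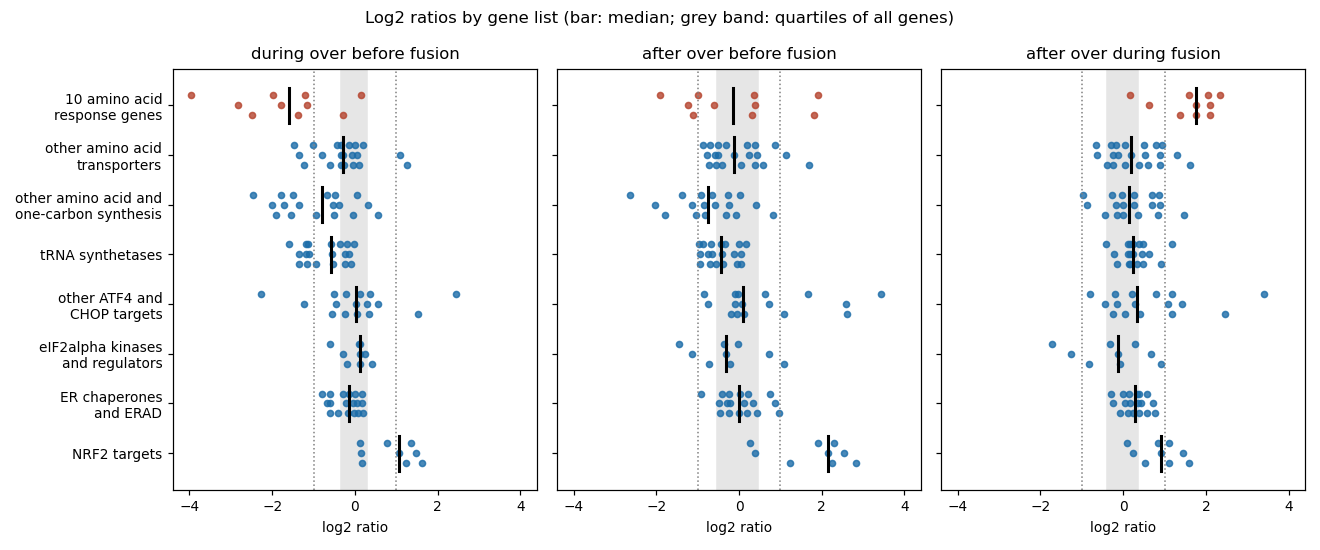
Log2 ratio of each gene of 8 lists by its brightest probe set in the 3 comparisons, 1 array per stage. Points are genes, black bars list medians, the grey band the quartiles of all genes and dotted lines 2-fold; the 10 genes have medians of -1.58, -0.15 and 1.76, and the chaperone genes stay within 2-fold in each comparison.

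The genes with a pattern nearest to *Asns* were sought among 11841 genes above the floor on all 3 arrays, by the Euclidean distance over the log2 ratios during and after over before fusion. The nearest were *Cited1*, *Slc30a3*, *Stc2*, *Slc7a5* and *Dpysl5*, at distances of 0.099 to 0.46. For *Slc7a3* they were *Slc7a5*, *Slc30a3*, *Cited1*, *Bcat1* and *Asns*, at distances of 1.33 to 1.70, all greater than those around *Asns*. *Cited1*, a transcriptional coregulator, had signals of 80.3, 14.4 and 34.8, and *Slc30a3*, a zinc transporter gene, 121, 17.6 and 50.3, both near the floor during fusion. A pattern over 3 arrays holds only 2 ratios, and likeness in it is a description.

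The labelled tissue was checked by markers. All 10 epithelial and all 10 palatal mesenchyme markers were above the floor on each array. Summed scaled signals before, during and after fusion were 11571, 20589 and 27493 for epithelium and 24327, 18637 and 24064 for mesenchyme. Of the mesenchyme markers, 3 were over 2-fold lower during and 5 after over before fusion, and none was higher. Of the epithelial markers, 3 were higher during and 5 after over before fusion, and none was lower. All of these higher markers were keratin genes. *Epcam*, *Cdh1* and *Grhl2* stayed within 2-fold, with ratios after over before fusion of 1.26, 1.67 and 1.34. *Trp63* and *Esrp1* lay below their starting signals within 2-fold, with ratios of 0.613 and 0.700. Among all genes, 3.19% were lower and 5.45% higher during over before fusion, and 9.58% and 12.6% after over before fusion. Sums of the mesenchymal markers above and of endothelial, cartilage and nerve markers were lowest during fusion, none of them by over 2-fold against both other stages. Single markers did not all follow these sums. *Vim* and *Col1a2* were the brightest mesenchymal markers. Only *Vim* and *Shox2* were lowest during fusion, *Col1a2* was lowest before it, and the others, such as *Barx1* (2674, 834 and 389), after it. Among nerve markers, *Tubb3* was lowest during fusion, *Stmn2* before it and *Sox10* after it. Summed signals of 8 skeletal muscle markers were 1369, 349.9 and 163, with 7 of 8 over 2-fold lower during over before fusion, and those of 6 endothelial markers 1121, 585 and 636, with 3 of 6 lower. Summed signals of 8 macrophage markers were 586, 1205 and 2671 and those of 6 ciliated cell markers 147, 2272 and 14233. Of 5 erythroid markers, with sums of 15271, 9891 and 1925, *Hba-a1* was under the floor on all 3 arrays. Sums were 229, 3069 and 5519 for 3 osteoblast markers, 1222, 559 and 595 for 5 cartilage markers, of which *Matn1* was under the floor on each array, and 188, 178 and 389.8 for 3 nerve and Schwann cell markers. The part of these cells in the signals of the amino acid response genes was not tested.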

How the data were processed

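The deposited intensity values are linear MAS5 signals, 1 for each probe set and array, made by the authors in GeneChip Operating Software with background correction; no scaling target is given in the sources used here. Sample groups were taken from the sample titles and hours in culture from the study. RNA extraction is given as Trizol by the methods and as a column kit by the labels. The methods describe several samples per stage, each palate prepared and extracted on its own; they do not say whether the array of a stage holds 1 such RNA or several combined. The table holds 45101 probe sets, 64 of them controls. Of the others, 34945 name 1 gene, and 34754 symbols were matched by gene ID to RefSeq annotation of GRCm38.p6. Here each array was brought to a common trimmed mean, without the highest and lowest 2% of signals (factors of 1.11 before, 0.918 during and 0.986 after fusion). As the floor, the 95th percentile over 81 probe sets of sensory receptors was taken on each array, and lower signals were raised to it. It was exceeded by 56.9% of probe sets before, 65.8% during and 61.5% after fusion. The number of arrays limits the precision.

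The brightest probe set stands for a gene, and over 2-fold counts as higher or lower. Lists were described by counts and medians beside all genes. The members, lists and comparisons were chosen with earlier results of these data known. Named genes are the 10 members, up to 4 lower and 2 higher genes of each list during or after over before fusion, their direct partners and paralogs, and the 5 genes nearest to *Asns* and *Slc7a3*. Other list members are named for contrast, after their values were seen, as were the motifs and the promoters printed. Alternatives were 5 other scalings, other floors, other choices of probe set and thresholds of 1.5-fold and 4-fold. Steps were tested on simulated data. Python 3.11.15, pandas 2.3.3, numpy 2.4.6 and scipy 1.17.1 were used.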

Additional observations from a re-analysis of the deposited data

How the results depend on the processing

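Values of single members kept their direction and their side of the 2-fold limit, or moved by less than the spread between probe sets, in 248 of 258 recalculations, and no member that passed 2-fold changed sign under any alternative. Many of these recalculations could not give another value, so the count does not measure stability. The brightest probe set of each member lay above every floor tried. Genes with a single probe set keep their value with the median over probe sets. Leaving out marked probe sets, as described below, kept the same probe set for each member that remained. With a gene's median probe set ratio, 1 member in place of 2 was over 2-fold higher after over before fusion, because the probe sets of *Slc7a11* have opposite log2 ratios; why they differ was not tested. A further setting left out all probe sets whose names mark shared sequence or several transcripts of the same gene. There 6 members remained, of which 4 were over 2-fold lower during fusion, and the median log2 ratio of the 6 was -2.14. *Trib3*, *Atf5*, *Psat1* and *Phgdh* have only such marked probe sets, so the smaller number of members is part of this setting. With a 4-fold threshold, 3 members were lower during over before fusion, 0 lower and 0 higher after over before fusion, and 4 higher after over during fusion. At 1.5-fold, 5 were lower after over before fusion. All ratios shift together with the scaling: the median log2 ratio of all genes during over before fusion moved by -0.25 when scaled to poly-A controls and by 0.28 without scaling, and that after over before fusion by -0.36 and 0.18. A signal near the floor, such as those of *Slc7a11* before and during fusion and of *Slc7a3* and *Trib3* during fusion, has little precision. With 1 array per stage the spread between embryos is unknown.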

Other observations

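Genes of cell division were followed as a further list. Of 16 above the floor, none was over 2-fold different during over before fusion by its brightest probe set, with a median log2 ratio of -0.43. Other probe sets of *Mcm5* and *Mcm3* were over 2-fold lower (log2 -1.49 and -1.19). With the poly-A controls 1 of the 16 was lower in this comparison. Among all genes, 3.19% were lower and 5.45% higher. After over before fusion 4 of the 16 were lower, beside 9.58% of all genes, with a median of -0.82. The 4 were the replication helicase genes *Mcm5* (2.62-fold) and *Mcm6* (2.19-fold), the ribonucleotide reductase gene *Rrm2* (2.20-fold) and *Birc5* (2.07-fold). With the poly-A controls 10 of 16 were lower after fusion and with the signals as deposited 1. Among the paralogs of the members, *Asnsd1*, which has an asparagine synthetase domain, had ratios of 0.985 during and 0.923 after over before fusion, where *Asns* had 0.179 and 0.465. *Slc7a8*, encoding LAT2, was under the floor before fusion and near it at the other stages.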
